A study of Mus musculus with 21 samples.

Results

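The actins are the proteins that polymerise into thin filaments in muscle and into the cytoskeleton in every cell. The genes described here are Acta1 (skeletal muscle alpha-actin), Actc1 (cardiac alpha-actin), Acta2 (smooth muscle alpha-actin), Actb (beta-actin) and Actg1 (gamma-actin). They were taken by exact gene name from the gene matrix deposited for a mouse heart RNA sequencing study, in which 5 of 19096 genes carry these names. All 5 passed the filter on low counts in a table of 15216 genes tested.

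The study compared heart tissue of male C57BL/6NJ mice under a diet and a renin challenge, alone and together, as a model of heart failure in which the ejection fraction is preserved. Mice entered at 8 to 10 weeks of age and were fed chow or a high-fat diet (HFD, 60% of kcal from fat) over 10 weeks. They received an adeno-associated virus (AAV) carrying renin, or a control, and hearts were collected 6 weeks after a retro-orbital injection. There were 4 chow control, 6 chow renin, 6 HFD control and 5 HFD renin hearts, 1 library each and 21 libraries in all. The sample titles call the controls no virus, whereas the design text says null vector. The labels name no altered allele, and the promoter or cell type that drives renin from the vector is not given in the sources used here. The mouse renin gene Ren1 was listed at 0 TPM (a level corrected for transcript length and library size) in 17 of 21 libraries and reached 0.12 TPM at most, so heart RNA does not check the delivery of renin.

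Vertebrate actins are almost identical in protein sequence and differ mainly in where and when each gene is used. In the adult mouse heart, Actc1 is the main actin of cardiac muscle cells, whereas Acta1 is abundant in the developing heart and is used again in the adult when the heart is overloaded, together with Myh7 and the natriuretic peptides. Acta2 marks vascular smooth muscle and activated fibroblasts, and Actb and Actg1 build the cytoskeleton of all cell types. Muscle actin genes are classical targets of serum response factor (SRF), which binds the CArG box, and of TEAD factors, which bind CATTCC.

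Each library held 18.74 to 29.27 M (mega) estimated reads, of which 29.53% to 37.89% came from mitochondrial genes. The chow control libraries were the shallowest, with 21.41 M at most against 22.81 M at least in any other group. All 8 cardiac muscle cell markers were present, with a summed level of 14357 to 17315 TPM in HFD renin hearts and 17115 to 22263 TPM in the others. Each library is 1 heart, so p-values measure the spread between hearts. A score of atrial markers was high in 5 libraries, namely chow control 3, chow renin 1 and 3, HFD control 3 and HFD renin 3. The markers listed were Sln, Myl7, Myl4 and Bmp10, of which 3 passed the filter on low counts. Bmp10 was not high in any library, at 0.168 TPM at most. The chambers sampled are not given in the labels. RNA of neurons and glia (13 markers) summed to 89.5 to 150 TPM in all 6 chow renin libraries and to 24.9 to 44.2 TPM in the other 15, without overlap. All 13 were higher in chow renin than in chow control by edgeR's quasi-likelihood test, which called 10.1% of all genes higher and 3.36% lower. Results for the chow renin group carry that difference with them.

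The actin promoters are shown because 3 members carry the same kind of motif there, while they differed in which comparisons passed the test. RefSeq promoter entries (GRCm38.p6) matched 4 of 5 members. In the 250 bases before the RefSeq start, Acta1, Actc1 and Actg1 each held 1 exact match to the CArG box, and Acta2 held none. The pattern searched was CC, then 6 bases that are each A or T, then GG, which reads alike on both strands. Of 32851 promoters of this length, 1.47% held a match. Boxes that depart from this pattern were not searched for, so a window without a match can still hold one. CATTCC, searched on both strands, was found in Acta1 and Acta2 and in 12.6% of all promoters. TATAAA, searched in the same way, was found in Acta1 and in 12.4% of all promoters. The sequences below are printed on the gene's own strand, which is the minus strand for all members, with the CArG box in capitals and without bases that lie in an annotated exon. They cover chr8:123894776-123895025 for Acta1, chr2:114052888-114053125 for Actc1 and chr11:120348543-120348677 for Actg1.
Acta1: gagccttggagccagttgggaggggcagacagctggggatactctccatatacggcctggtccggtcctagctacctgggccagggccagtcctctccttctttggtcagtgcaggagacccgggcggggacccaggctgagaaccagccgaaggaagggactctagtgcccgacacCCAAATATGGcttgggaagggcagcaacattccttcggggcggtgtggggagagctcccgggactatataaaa
Actc1: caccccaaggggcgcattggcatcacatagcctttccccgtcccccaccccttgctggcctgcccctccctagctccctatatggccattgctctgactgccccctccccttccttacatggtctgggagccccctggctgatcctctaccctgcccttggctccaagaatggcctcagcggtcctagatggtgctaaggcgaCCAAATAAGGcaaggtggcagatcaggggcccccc
Actg1: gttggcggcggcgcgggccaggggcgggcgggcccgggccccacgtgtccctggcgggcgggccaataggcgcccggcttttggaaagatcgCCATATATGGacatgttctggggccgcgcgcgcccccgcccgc
The boxes lie 73 to 64 bases before the start in Acta1 (CCAAATATGG), 47 to 38 bases in Actc1 (CCAAATAAGG) and 90 to 81 bases in Actg1 (CCATATATGG). Of the Acta2 window, 217 of 250 bases lie in an annotated exon, and its sequence is not printed. These positions count from RefSeq starts at 123894775 (Acta1), 114052875 (Actc1) and 120348495 (Actg1). The GENCODE annotation used for the counts starts these minus-strand genes at 123894751, 114053548 and 120348542. The printed Actc1 stretch thus lies within the Actc1 span of that annotation. A match is a run of letters and was not tested as a binding site.

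Acta1 was the member that changed most, and it rose in the HFD renin hearts against each of the other groups. Acta1 lies on chromosome 8 at 123891769 to 123894751 (GRCm38) and has 7 exons. In chow control hearts 1 to 4 its level was 135, 178, 310 and 96.8 TPM. In chow renin hearts the lowest, median and highest levels were 30.6, 385 and 525 TPM, and in HFD control hearts 38.4, 61.3 and 128 TPM. HFD renin hearts 1 to 5 held 1896, 1235, 549, 451 and 1625 TPM. Every HFD renin heart was above every control heart on either diet, and 4 of 5 were also above every chow renin heart, while HFD renin heart 4 fell within the range of that group. The means ± SD were 69.5 ± 31.6 (n = 6), 180 ± 93.0 (n = 4), 347 ± 176 (n = 6) and 1151 ± 640 TPM (n = 5) in HFD control, chow control, chow renin and HFD renin hearts, in rising order.

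**Figure D1:**
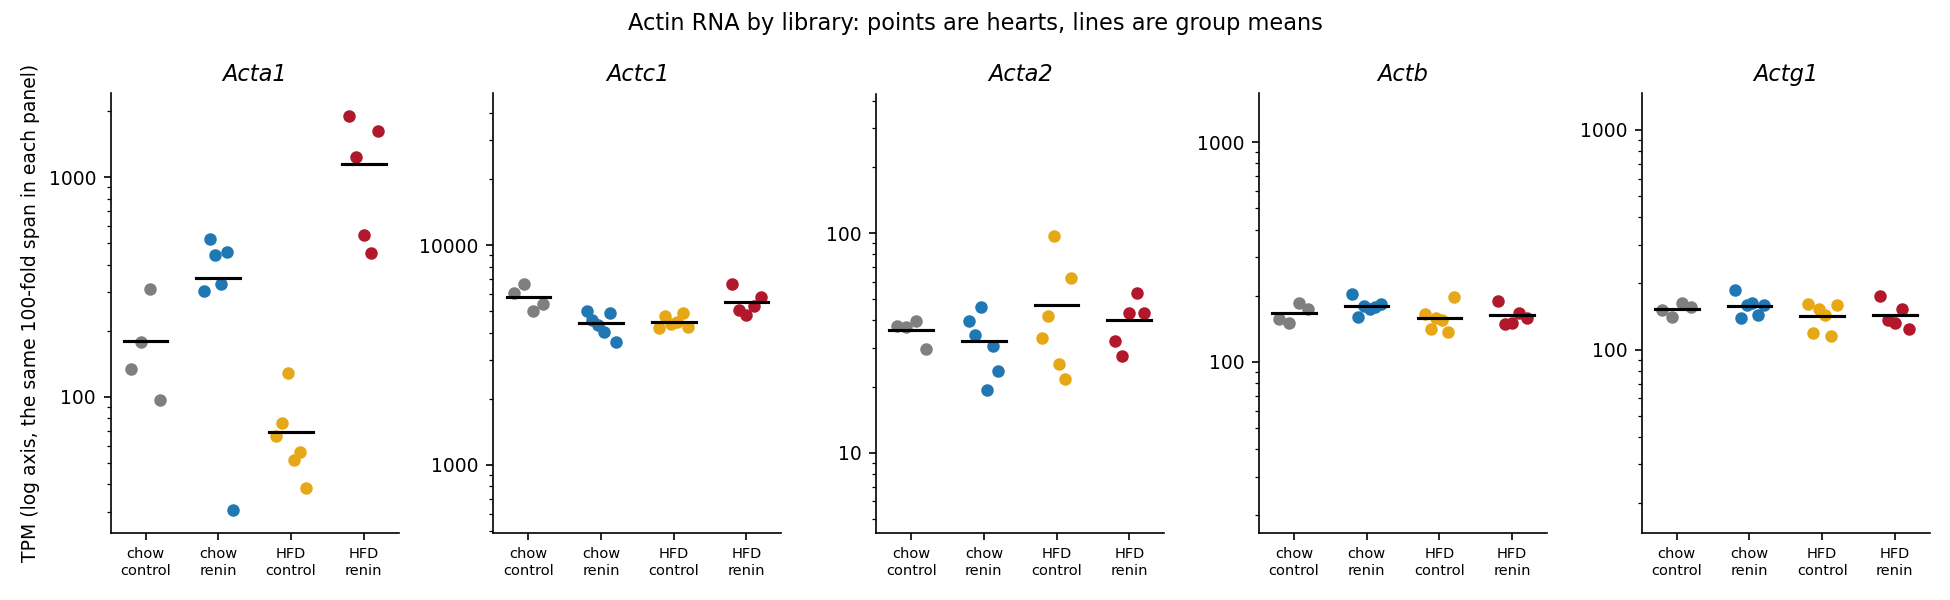
Level of each actin in each heart, in TPM on a log axis that spans the same 100-fold range in each panel, with hearts of a group in order of replicate number from left to right and the group mean as a line. Acta1 runs from 30.6 to 1896 TPM, while Actb and Actg1 stay within 115 to 203 TPM in all 21 hearts.

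On high-fat diet, renin was accompanied by an Acta1 rise of 3.91 ± 0.57 on the log2 scale (SE; adjusted p = 0.00106, edgeR's quasi-likelihood test with Benjamini-Hochberg adjustment over 15216 genes). Against chow control hearts, Acta1 in HFD renin hearts rose by 2.68 ± 0.63 log2 (adjusted p = 0.0157), and against chow renin hearts by 1.81 ± 0.53 log2 (adjusted p = 0.0195). Neighbours lower in the order did not pass the test. The chow renin hearts differed from chow control by 0.87 ± 0.57 log2 (adjusted p = 0.388), and the HFD control hearts by -1.23 ± 0.55 log2 (adjusted p = 0.432, unadjusted p = 0.0401). The interaction, which tests whether renin's difference on HFD exceeds that on chow, was 3.04 ± 0.76 log2 (adjusted p = 0.0145). The authors' deposited table, whose reference group is not stated, gives Acta1 a log2 fold change of 1.95 with an adjusted p of 0.000301.

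How far the calls rest on single libraries differed between comparisons. The HFD renin against HFD control call held without any one library. The call against chow control was lost without chow control heart 1, 2 or 4, with Acta1 log2 fold changes of 2.57, 2.67 and 2.48 and adjusted p values of 0.0539, 0.0512 and 0.0616. The call against chow renin was lost without HFD renin heart 1 or 5, with log2 fold changes of 1.57 and 1.65 and adjusted p values of 0.0652 and 0.0508. With all 5 libraries rich in atrial RNA left out, Acta1 rose by 4.29 log2 against HFD control (adjusted p = 0.00319) and by 3.20 log2 against chow control (adjusted p = 0.0252). Against chow renin it was then 1.97 log2 (adjusted p = 0.0606), and the interaction was 3.06 log2 (adjusted p = 0.0672). With the neuron and glia score as a covariate, these last results were 2.23 log2 (adjusted p = 0.999) and 3.57 log2 (adjusted p = 0.858). Fitted on the libraries of both groups alone, the difference from chow renin had an adjusted p of 0.0651.

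The chow renin group holds a single low library. Heart 6 had 30.6 TPM of Acta1, from 1123 estimated reads, whereas the other 5 hearts held 303 to 525 TPM. The same heart was the lowest of its group in Ankrd1 at 243 TPM and in Myh7 at 45.6 TPM. Without it, the Acta1 difference between chow renin and chow control was 1.11 log2 (adjusted p = 0.107). Nothing in the labels sets this heart apart.

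Clock gene RNA also differed between groups. A clock score, the mean log2 CPM of 9 day-phase genes minus that of 3 night-phase genes, was 2.40 to 3.45 in HFD renin hearts, 3.53 to 3.85 in HFD control hearts and 3.82 to 4.23 in chow control hearts, without overlap between the first group and either control. In chow renin hearts it was 3.19 to 3.50. With this score as a covariate, Acta1 was 2.94 log2 higher in HFD renin than in HFD control hearts (adjusted p = 0.993) and 1.30 log2 higher than in chow control hearts (adjusted p = 0.881). Against chow renin hearts it was then 1.30 log2 (adjusted p = 0.164), and the interaction was 2.93 log2 and still passed (adjusted p = 0.0133). The times of collection are not given in the sources used here, and the part of the clock difference in these results was not tested further.

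Because Acta1 is the actin of skeletal muscle, the markers of that tissue were set beside it. The skeletal myosin heavy chains Myh1, Myh2 and Myh4 reached 0.0792, 0.0647 and 0.00576 TPM at most, in any library. The 17 skeletal muscle markers summed to 27.7 to 63.1 TPM outside the HFD renin group and to 43.4 to 72.1 TPM within it. Of these markers 10 were tested, and in HFD renin against HFD control 1 was called higher and 2 lower, where 6.07% of all genes were called higher and 5.08% lower. Ryr1, the skeletal muscle calcium release channel, rose by 1.90 ± 0.47 log2 (adjusted p = 0.013) at no more than 0.475 TPM in any heart. The difference was 1.02 log2 without HFD renin heart 2 (adjusted p = 0.069) and 0.15 log2 by limma (adjusted p = 0.362). The limma fit adds 1 to each value before the log, which shrinks differences at levels this low. Cacna1s, a calcium channel subunit, fell by 0.62 log2 (adjusted p = 0.011; 0.154 by limma). Tnni2, the fast skeletal troponin I, fell by 1.11 log2 (adjusted p = 0.0374), a call that 7 of the fits without 1 heart lost (HFD control 3, 5 or 6, HFD renin 1, 2, 3 or 5; adjusted p of 0.0618 to 0.0913). Much of the sum was Myl1, a light chain that atrial and developing heart muscle also use, at 12.3 to 54.5 TPM. Myl1 rose by 1.03 log2 against chow control (adjusted p = 0.0281) and by 1.104 log2 against chow renin (adjusted p = 0.00247), and was 0.73 log2 above HFD control without passing (adjusted p = 0.059). The Myl1 call against chow control was lost without chow control heart 1, 2 or 4 or HFD renin heart 1, 2 or 5 (adjusted p of 0.0618 to 0.102). The part of these markers in the Acta1 result was not tested.

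Actc1 was the most abundant actin in every heart. It lies on chromosome 2 at 114047282 to 114053548 and has 7 exons. Chow control hearts 1 to 4 held 6071, 6670, 5022 and 5416 TPM. Chow renin hearts held 3611, 4459 and 5000 TPM as the lowest, median and highest level, and HFD control hearts 4202, 4423 and 4921 TPM. HFD renin hearts 1 to 5 held 6642, 5050, 4800, 5272 and 5805 TPM. In TPM, every chow renin and every HFD control heart was below every chow control heart, while the HFD renin hearts overlapped with them. In log2 CPM (counts scaled between libraries as in the test), the highest chow renin heart (12.75) was still below the lowest chow control heart (12.81). HFD control hearts 2, 4 and 5 (13.01, 12.835 and 13.11) were above that chow control heart.

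Actc1 fell in chow renin hearts by 0.50 log2 against chow control, as -0.50 ± 0.11 (SE; adjusted p = 0.00154, edgeR). It was 0.42 ± 0.10 log2 higher in HFD renin than in chow renin hearts (adjusted p = 0.00356), and the interaction was 0.66 ± 0.15 log2 (adjusted p = 0.00354). The other differences did not pass the test, at -0.24 ± 0.11 log2 for HFD control against chow control (adjusted p = 0.416), 0.16 ± 0.10 log2 for HFD renin against HFD control (adjusted p = 0.332) and -0.08 ± 0.11 log2 for HFD renin against chow control (adjusted p = 0.702). With the neuron and glia score as a covariate, the 3 calls were lost while the sizes were -0.61, 0.51 and 0.78 log2, with adjusted p of 0.771, 0.999 and 0.806. That score separates the chow renin hearts from all others, so the neuron and glia RNA and the renin group on chow cannot be told apart. In RNA of whole tissue, fewer cells of a type and less RNA per cell cannot be told apart either.

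Acta2, the smooth muscle actin, was low and passed the test in none of the 6 comparisons. It lies on chromosome 19 at 34241090 to 34255590 and has 9 exons. Chow control hearts 1 to 4 held 37.8, 37.2, 40.0 and 29.5 TPM, and HFD renin hearts 1 to 5 held 32.3, 27.5, 43.4, 53.5 and 43.4 TPM. Chow renin hearts ran from 19.3 over a median of 32.6 to 46.1 TPM, and HFD control hearts from 21.7 over 37.6 to 96.8 TPM. The groups overlapped, and the highest heart, HFD control 3, is one of those rich in atrial RNA. Log2 differences ranged from -0.32 ± 0.32 for chow renin against chow control to 0.47 ± 0.30 for HFD renin against chow renin, with adjusted p of 0.609 and 0.295. Of 8 other smooth muscle markers, 0 were called higher and 1 lower in HFD renin against HFD control hearts, where 6.07% of all genes were called higher and 5.08% lower. That gene was Smtn, which encodes the actin-binding protein smoothelin, at -0.47 ± 0.07 log2 (adjusted p = 0.000442).

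The cytoplasmic actins Actb and Actg1 were the most even members. Actb lies on chromosome 5 at 142903115 to 142906754 and Actg1 on chromosome 11 at 120345690 to 120348542, each with 6 exons. Actb averaged 166 ± 16.4, 179 ± 14.3, 159 ± 22.0 and 163 ± 16.7 TPM in chow control (n = 4), chow renin (n = 6), HFD control (n = 6) and HFD renin (n = 5) hearts. Actg1 averaged 153 ± 9.0, 158 ± 16.8, 142 ± 20.4 and 144 ± 20.1 TPM in the same groups. Neither passed the test in any of the 6 comparisons, and the largest differences in size were interactions of -0.11 ± 0.10 log2 for both genes (adjusted p = 0.591 and 0.567, edgeR). The ratio of Actb to Actg1 lay between 1.03 and 1.27 in every heart, and none of 5 exact permutation tests of its log2 value passed (two-sided, adjusted p from 0.349 to 0.978 over 10 ratio tests).

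These levels depend on how reads were divided between near-identical genes. Of the 31-base stretches of the main Actg1 transcript, 57.1% also occur in other genes, chiefly the processed pseudogene Gm12715, which received at most 3.34% as many reads as Actg1. For Actb the share was 35.1%, chiefly through Lrrc58, a protein-coding gene that received 15.0% to 23.2% as many reads. For the muscle actins the shares were small, at 4.45% for Acta1, 1.496% for Acta2 and 0.832% for Actc1. The main transcript took 99.3% of the reads of Acta1, nearly all of those of Actc1, 94.2% of Acta2, 92.8% of Actb and 87.4% of Actg1.

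**Figure D2:**
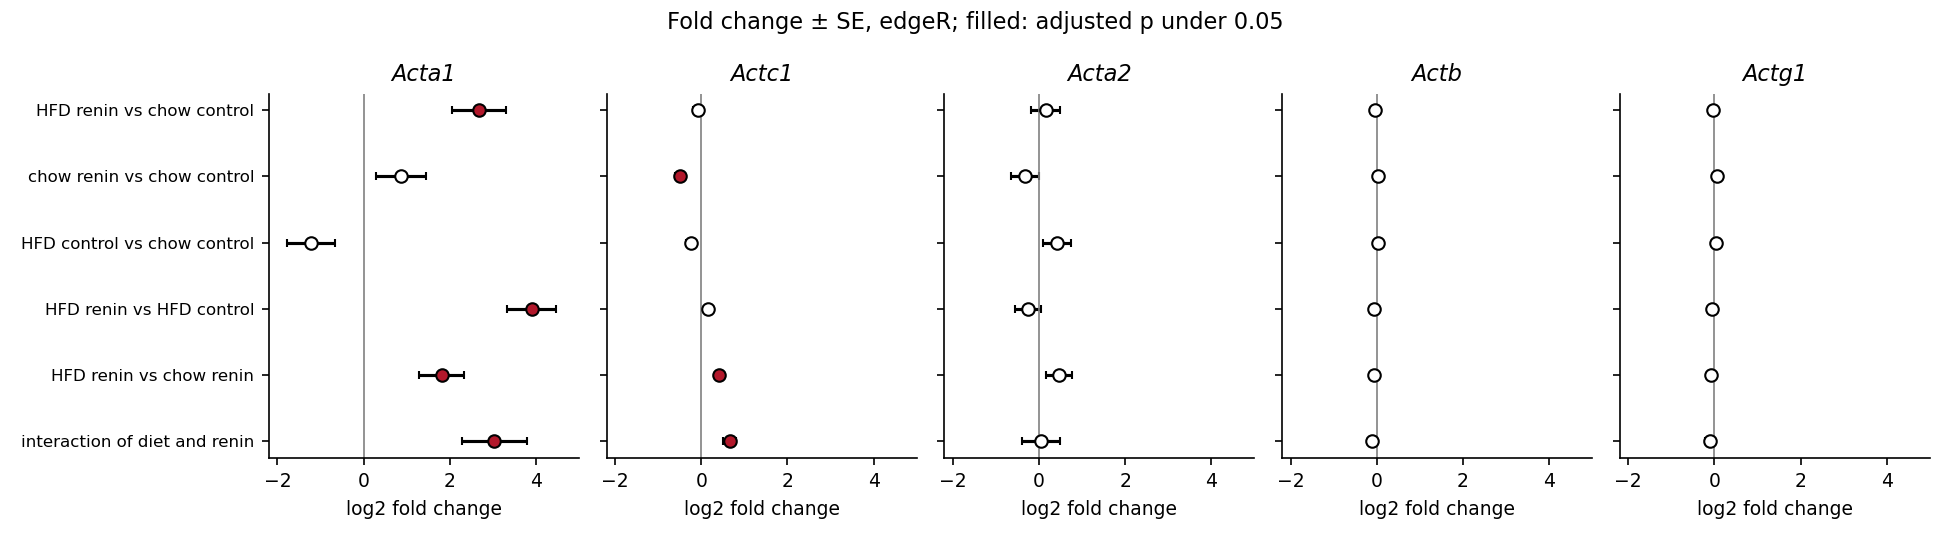
Log2 fold change of each actin in the 6 comparisons, with the standard error as a horizontal bar that is hidden by the point where it is short. Filled points mark adjusted p under 0.05: Acta1 is filled in 4 comparisons, Actc1 in 3 and the other members in none.

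Read against all genes tested, the count of called members was 1 of 5 for HFD renin against chow control, where 8.29% of all genes were called (4.05% higher, 4.25% lower). It was 1 of 5 for chow renin against chow control, with 13.5% of all genes called (10.1% higher, 3.36% lower), and 0 of 5 for HFD control against chow control, with 0.0657% called (0.0131% higher, 0.0526% lower). There 2 of 5, Acta1 and Actc1, had an unadjusted p under 0.05 by edgeR, as did 11% of all genes, and 0 were called by DESeq2 or limma. It was 1 of 5 for HFD renin against HFD control, where 11.1% were called (6.07% higher, 5.08% lower), and 2 of 5 against chow renin, where 22.6% were called (9.8% higher, 12.8% lower). The interaction called 2 of 5 members and 10.4% of all genes (3.14% higher, 7.3% lower). A count of 1 or 2 among 5 members is not read as a result about the actins as a group. Comparisons that share a control group are not independent of each other.

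The share of each isoform in summed actin TPM shows the same data within each heart, and it is given as a description. Actc1 made up 91.4 ± 2.43% of actin in chow control hearts (n = 4), 86.2 ± 2.28% in chow renin (n = 6), 91.5 ± 1.71% in HFD control (n = 6) and 79.4 ± 5.74% in HFD renin hearts (n = 5). Acta1 made up 2.90 ± 1.71%, 6.53 ± 3.20%, 1.41 ± 0.638% and 15.6 ± 6.57% in the same order. In HFD renin hearts 1 to 5 the Acta1 share was 21.2%, 18.7%, 9.67%, 7.40% and 20.96%. In the chow control hearts it was 2.06%, 2.49%, 5.42% and 1.65%. The remaining 3 members together held little of the total: Actb was 2.36% to 3.54% in the group means, Actg1 2.09% to 3.13% and Acta2 0.574% to 0.962%. The summed level of all 5 actins was 6330 ± 670 TPM in chow control, 5132 ± 669 in chow renin, 4913 ± 242 in HFD control and 7012 ± 1328 TPM in HFD renin hearts.

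**Figure D3:**
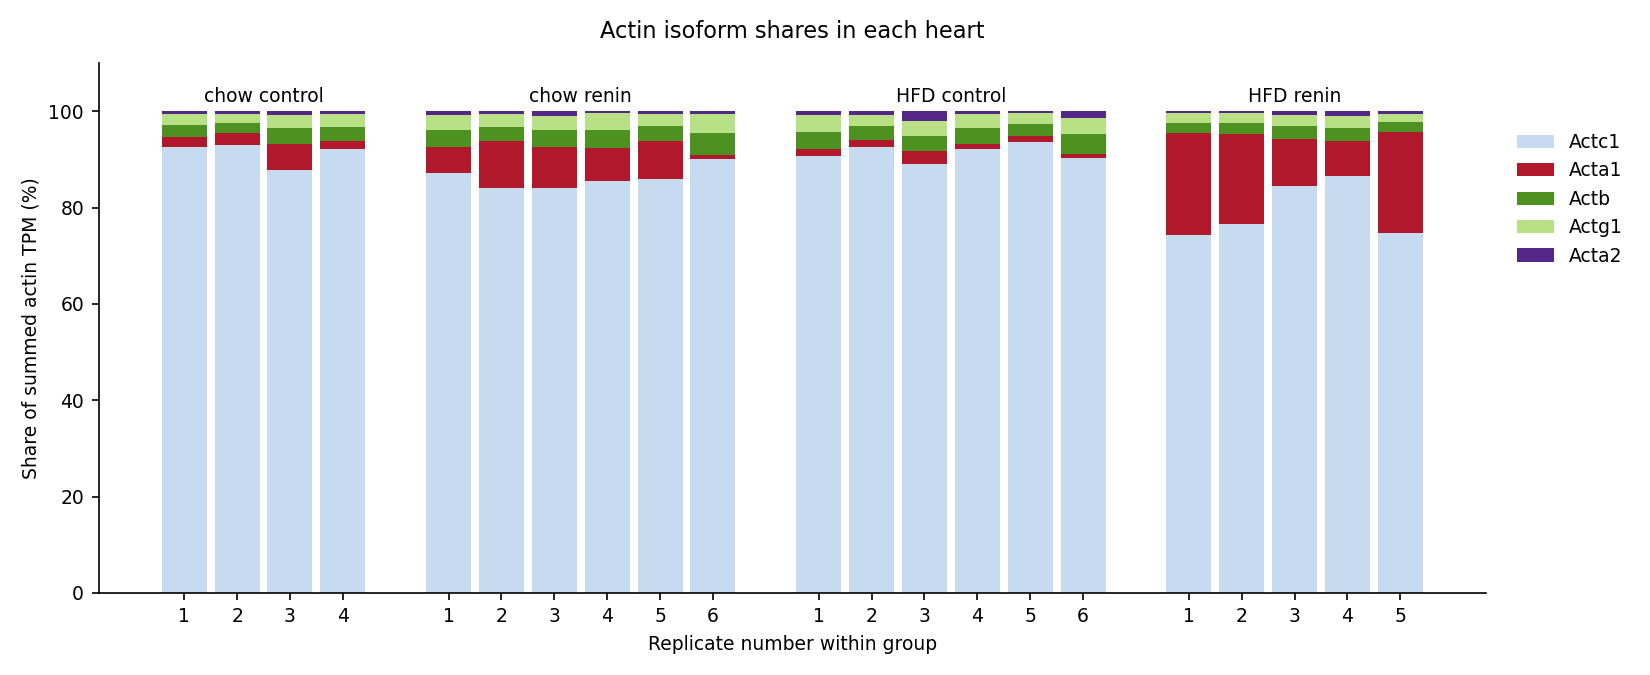
Share of each actin in the summed actin TPM of each heart, as stacked bars from 0 to 100% by group and replicate. Acta1 takes 7.40% to 21.2% in the HFD renin hearts and at most 5.42% in the control hearts of either diet.

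The ratio of Acta1 to Actc1 needs no scaling between libraries. Chow control hearts 1 to 4 had ratios of 0.0222, 0.0267, 0.0618 and 0.0179, and HFD renin hearts 1 to 5 had 0.286, 0.245, 0.114, 0.0856 and 0.280. Chow renin hearts ran from 0.00846 over a median of 0.0867 to 0.115, and HFD control hearts from 0.00904 over 0.0137 to 0.0293. All 5 HFD renin hearts lay above every control heart, and 3 of 5 lay above every chow renin heart. The mean log2 ratio was 3.65 higher in HFD renin than in HFD control hearts (two-sided exact permutation test, p = 0.00216, the smallest that 462 splits allow, adjusted p = 0.0216). It was 2.67 higher than in chow control hearts (exact p = 0.00794, the smallest that 126 splits allow, adjusted p = 0.0397). Against chow renin hearts the difference of 1.60 did not pass (exact p = 0.0325, adjusted p = 0.107). Neither did chow renin against chow control at 1.07 (exact p = 0.195, adjusted p = 0.349), or HFD control against chow control at -0.98 (exact p = 0.0429, adjusted p = 0.107). Without HFD control heart 3, a library rich in atrial RNA, the last of these was -1.19 and passed (adjusted p = 0.0265), and without chow control heart 3, also rich in atrial RNA, it was -0.61 (exact permutation test, adjusted p = 0.258). Without chow renin heart 6, which had the lowest ratio, HFD renin was 1.03 above chow renin (exact permutation test, adjusted p = 0.111) and chow renin 1.63 above chow control (adjusted p = 0.0529), each moved by over 1.5 times.

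Actg2, the enteric smooth muscle actin, was not a member and was low. It had 3 to 158 estimated reads a library and group means of 0.578 to 2.01 TPM, and it was called in none of the 6 comparisons.

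The genes whose pattern was most like that of Acta1 over the 21 libraries were Ankrd1, Haus8 and Hbegf, among 10061 genes with a mean of at least 5 CPM (a count scaled to library size). Pearson's r of log2 CPM was 0.94, 0.93 and 0.91, and 0.84, 0.82 and 0.75 after each group's mean was subtracted. Ankrd1 encodes a titin-associated stretch protein of the muscle cell, Haus8 a subunit of the augmin complex of microtubules, and Hbegf a growth factor of the epidermal growth factor family. Ankrd1 held 1405, 1508, 956, 841 and 1486 TPM in HFD renin hearts 1 to 5 and 230.97 to 426 TPM in HFD control hearts, without overlap. Haus8 averaged 14.7 ± 3.23 TPM in HFD renin hearts (n = 5) and 6.59 ± 1.71 TPM in HFD control hearts (n = 6), and Hbegf 11.99 ± 5.48 and 4.30 ± 0.76 TPM. As these genes were picked for sharing the pattern of Acta1 over the same libraries, their levels are a description, and a p for them would be no independent evidence.

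For Acta2 the most alike genes were Tagln and Csrp2, both of smooth muscle, and Rnase4, with r of 0.85, 0.85 and 0.84 and within-group r of 0.90, 0.89 and 0.81. For Actg1 the third was Actb, with r of 0.69 and a within-group r of 0.67. Actb was led by Lasp1, which encodes an actin-binding adaptor, at r of 0.77 and within groups 0.76. Actc1 was led by 2510039O18Rik and Afg1l, with r of 0.89 and 0.88. These correlations are descriptions over libraries that share depth, tissue piece and group.

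**Figure D4:**
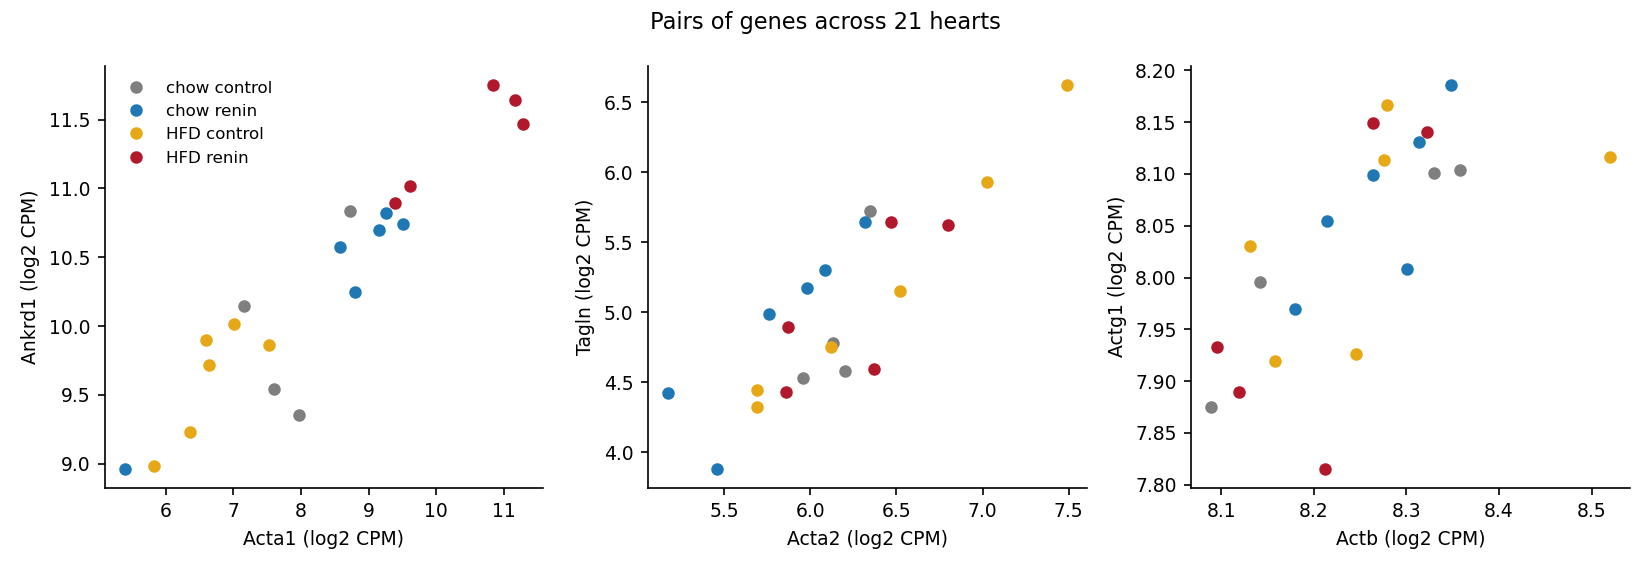
Log2 CPM of 3 pairs of genes in 21 hearts, coloured by group: Acta1 with Ankrd1 (r of 0.94), Acta2 with Tagln (0.85) and Actb with Actg1 (0.69). The HFD renin hearts are the highest in Acta1, apart from 1 heart that overlaps with the chow renin hearts, and are spread among the other groups in Acta2, Actb and Actg1.

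The proteins that work with actin were followed through lists of genes, of which the HFD renin against HFD control comparison is described here. Its background was 6.07% of all genes called higher and 5.08% lower, with a median log2 fold change of -0.0064. With the clock score as a covariate, edgeR called 0 of the genes named from these lists in this comparison or against chow control. It then called 0 of all genes tested too, so this is no result about the lists. Interactions and HFD renin against chow renin differences named from these lists are given without the neuron and glia score. That score removed most calls over all genes there. Of 22 thin filament genes, 2 rose and 5 fell, with a median of 0.08 log2. Xirp2, an actin-binding repeat protein of the intercalated disc, rose by 1.98 ± 0.25 log2 (adjusted p = 0.000442), and Capza1, a subunit of the capping protein, by 0.29 log2 (adjusted p = 0.0129; 0.0649 without HFD renin heart 1). The troponin genes Tnni3, Tnnt2 and Tnnt1 fell by 0.53, 0.39 and 0.57 log2, with adjusted p of 0.000818, 0.00304 and 0.0319. The Tnnt1 call was lost without HFD control heart 4 or 6 or HFD renin heart 1, 3 or 5 (adjusted p of 0.0645 to 0.0773). Xirp2 also rose by 1.78 log2 against chow control and by 1.52 log2 against chow renin, and its interaction was 1.72 ± 0.36 log2 (adjusted p = 0.00337). With the clock score the Xirp2 difference from chow control was 0.34 log2 (adjusted p = 0.918).

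Of 22 crosslinkers and anchoring proteins tested, 5 rose and 0 fell, with a median of 0.16 log2. Enah, an elongation factor of actin filaments, rose by 1.11 ± 0.16 log2 (adjusted p = 0.000555), and Flnc, the muscle filamin, by 0.78 ± 0.13 log2 (adjusted p = 0.00138). Both had an interaction that passed, at 1.06 and 0.82 log2 (adjusted p = 0.00318 and 0.00633). Enah levels were 64.0, 40.6, 30.8, 25.5 and 48.4 TPM in HFD renin hearts 1 to 5 and 10.5 to 22.5 TPM in HFD control hearts, without overlap. Enah also rose by 1.008 log2 against chow control and by 0.97 log2 against chow renin. With the clock score the Enah difference from chow control was 0.069 log2 (adjusted p = 0.976).

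Of 23 genes of actin dynamics, 3 rose and 0 fell, among them Wdr1 and Cfl2, which act together in taking filaments apart, by 0.37 and 0.28 log2 (adjusted p = 0.0203 and 0.0267). Wdr1 lost its call without HFD renin heart 1 or 2 (adjusted p = 0.111 and 0.0633), and Cfl2 without HFD control heart 3 or HFD renin heart 1, 2 or 5 (adjusted p of 0.0663 to 0.123). Pfn2, a profilin, rose by 0.32 log2 against chow control (adjusted p = 0.0138), and lost that call without chow control heart 1 or 2 (adjusted p = 0.0508 and 0.0631). Of 23 nucleation genes (the Arp2/3 complex, formins and their activators), 1 rose, the subunit gene Arpc5l, by 0.23 log2 (adjusted p = 0.0484). Most fits without 1 heart lost the Arpc5l call, with adjusted p up to 0.137. Of 17 genes for the folding of actin, Cct3 and Cct8, subunits of the chaperonin that folds actin, rose by 0.21 and 0.19 log2 (adjusted p = 0.0142 and 0.00869), and Pfdn5, a prefoldin subunit, fell by 0.26 log2 (adjusted p = 0.019). Calls were lost without HFD renin heart 1 for Cct3, Cct8 and Pfdn5 (adjusted p = 0.0589, 0.0589 and 0.0525), without heart 5 for Cct3 and Pfdn5 (0.0591 and 0.068) and without heart 2 for Pfdn5 (0.0564).

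Among 16 regulators of actin genes tested, 2 rose and 0 fell. Abra, an actin-binding activator of SRF signalling, rose by 1.34 ± 0.28 log2 (adjusted p = 0.00659) and Tead1, which binds CATTCC, by 0.53 ± 0.13 log2 (adjusted p = 0.0163; 0.0692 and 0.051 without HFD renin heart 1 or 5). Abra also rose by 1.57 log2 against chow control and by 1.51 log2 against chow renin, with 72.0, 36.0, 27.1, 17.1 and 34.1 TPM in HFD renin hearts 1 to 5 and 8.38 to 20.7 TPM in HFD control hearts. The values of these groups overlapped through HFD renin heart 4. Fitted on the libraries compared alone, Abra had an adjusted p of 0.0573 against chow control and 0.0762 against HFD control. With the clock score its difference from chow control was 0.049 log2 (adjusted p = 0.991). Srf itself was 0.12 ± 0.08 log2 (adjusted p = 0.36) and its cofactor gene Myocd 0.58 ± 0.22 log2 (adjusted p = 0.0921), and neither passed. Myocd passed by DESeq2 (adjusted p = 0.0396), without HFD control heart 1 (0.0172) and without HFD renin heart 4 (0.0399). Srf rose by 0.33 log2 against chow renin (adjusted p = 0.00473).

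Genes of the overloaded heart were set beside Acta1. Of 6 such genes, 4 rose and 1 fell in HFD renin against HFD control hearts, and 1 of the 4 is Ankrd1, which was also picked above for its likeness to Acta1. Myh7, the slow myosin heavy chain, rose by 2.57 ± 0.49 log2 (adjusted p = 0.00371) and Nppa, which encodes atrial natriuretic peptide, by 2.40 ± 0.64 log2 (adjusted p = 0.024). The Nppa call was lost without HFD renin heart 1, 2 or 5 (adjusted p of 0.0529 to 0.084). Myh6, the adult mouse myosin heavy chain, fell by 0.30 log2 (adjusted p = 0.0102). Against chow control, Myh7 rose by 2.05 ± 0.56 log2 (adjusted p = 0.0308), and in chow renin hearts it was 1.59 ± 0.53 log2 above chow control without passing (adjusted p = 0.0571). The first of these Myh7 calls was lost without chow control heart 1, 2 or 4 or HFD renin heart 1 or 2 (adjusted p of 0.0675 to 0.102), by limma (0.0533), on the libraries compared alone (0.0558), without the atrial libraries (0.0802) and with the clock score (1.12 log2, 0.881). The Myh7 difference in chow renin hearts passed without chow renin heart 6 (1.81 log2, adjusted p = 0.0101) and by DESeq2 (adjusted p = 0.00338).

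In chow renin hearts against chow control, 0 of 22 thin filament genes rose and 3 fell, on a background of 10.1% of all genes called higher and 3.36% lower. Lmod3 and Tmod1, which nucleate and cap thin filaments, fell by 0.43 and 0.27 log2 (adjusted p = 0.000478 and 0.000997), as did Actc1 above. The interaction for Lmod3 was 0.56 ± 0.11 log2 (adjusted p = 0.00129). That fit holds no neuron and glia score, which removed most interaction calls over all genes. The largest increases among actin-related genes there were Actl6b, an actin-like subunit of neuronal chromatin remodelling complexes, at 2.08 ± 0.31 log2 (adjusted p = 2.05e-05) and Wasf1 at 1.94 ± 0.24 log2 (adjusted p = 2.03e-06). Both genes are used in neurons, and neuron and glia markers were higher in the same 6 libraries. With the neuron and glia score as a covariate, Wasf1 was at -0.42 log2 and Actl6b at 0.16 log2, and the calls of Lmod3 and Tmod1 were lost at -0.58 and -0.37 log2. Actl6b was 0.803 to 1.86 TPM there and 0.110 to 0.597 TPM in all other hearts.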

How the data were processed

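RNA of 21 mouse hearts was quantified per transcript with Salmon 1.10.2 on GRCm38/mm10, and DESeq2 1.40.2 was used by the authors, per the submitters' processing notes. Per the file headers, the deposited files give estimated counts and TPM per transcript. A deposited gene matrix holds scaled signal values, whose scaling is not given in the sources used here, with the authors' log2 fold change and adjusted p-value for 1 comparison.

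Transcripts were summed to genes with GENCODE M21, which matched 97.95% of 119215 transcripts and left 0.8543% to 0.9253% of reads unmatched. Rounded gene counts entered edgeR 4.0.16 (R 4.3.3) with TMM scaling, a filter on low counts that kept 15216 of 23718 genes, 1 term per group and the quasi-likelihood test, with adjusted p under 0.05 as the threshold. On simulated data for HFD renin against chow control (15010 genes, 200 changed), 85% of changes of log2 size 1 and 99% of size 2 were recovered. Ratios were compared by exact permutation over 10 tests. Named genes were the actins, for each list the 2 called genes of largest change in each direction, a few by name and the 3 most alike genes, of which some are printed. Alternatives used DESeq2 1.42.0, limma 3.58.1, other scalings, covariates and subsets. Members and gene lists were chosen with earlier results of these data known.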

Additional observations from a re-analysis of the deposited data

Results flagged for a closer look

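The log2 ratio of Acta1 to Actc1 in chow renin heart 6 was -6.89, and its gap to the nearest heart took up 0.754 of the group's range, above the critical value of 0.625 for 6 samples. The log2 ratio of Actb to Actg1 in HFD renin heart 5 was 0.35, with a gap of 0.723 of the range against a critical value of 0.71. Of 32 groups of values checked, chance would single out about 1 in 20.

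The difference that came with renin was not the same on both diets for Acta1 and Actc1 by the interaction test of edgeR. For Acta1 it was 0.87 log2 on chow and 3.91 log2 on HFD, an interaction of 3.04 log2. For Actc1 it was -0.50 log2 on chow and 0.16 log2 on HFD, an interaction of 0.66 log2 between differences of opposite sign, of which edgeR called the first.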

How the results depend on the processing

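Depth did not limit the actins, which had at least 909 estimated reads in every heart. Other scalings, DESeq2, limma and no filter kept the calls of Acta1 and Actc1. Clock score as a covariate left 0 actins called by edgeR in HFD renin against chow control and against HFD control, where 0 of all genes were called. Against chow renin it left 1 actin called. The neuron and glia score left 0 called in chow renin against chow control, in HFD renin against chow renin and in the interaction. Fitting only the libraries compared left 1 called against chow renin. Without the 5 libraries rich in atrial RNA, an alternative chosen after seeing the data, 1 was called against chow renin and 1 in the interaction. The log2 ratio of Acta1 to Actc1 was then 3.20 against chow control (exact permutation test, adjusted p = 0.119) and 4.02 against HFD control (adjusted p = 0.0794), both from the smallest p that the remaining hearts allow (0.0286 and 0.00794), so that these lost calls say nothing of stability. The causes of the other changes were not tested.

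Leaving out 1 heart gave a ratio of Acta1 to Actc1 of 2.44 to 3.04 log2 for HFD renin against chow control, with adjusted p of 0.0893 to 0.143, each from the smallest p that the fewer splits allow, so that the lost call says nothing of single hearts, -1.21 to -0.61 for HFD control against chow control, 0.84 to 1.63 for chow renin against chow control and 1.03 to 1.87 for HFD renin against chow renin. Actins called ranged from 0 to 1 against chow control and from 1 to 2 against chow renin. The log2 ratio of Actb to Actg1 ranged from -0.030 to 0.042 against HFD control and from -0.043 to 0.023 against chow renin.

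Whether replicate numbers pair the samples is not given in the labels. Deviations of same-numbered hearts correlated at -0.23 to 0.42. By pair of groups their mean was 0.054 to 0.152, against -0.029 to -0.011 for differently numbered hearts. With the replicate block, the Acta1 to Actc1 ratio was 1.397 log2 for chow renin against chow control and 1.25 log2 for HFD renin against chow renin, both passing by limma with an adjusted p of 0.0431, where the exact permutation test without the block did not pass (the block and the test changed together), and the Actb to Actg1 ratio was -0.0013 for HFD control against chow control and 0.016 for HFD renin against chow renin. In each group, heart 3 is a library rich in atrial RNA. The block changed no call of a single actin, and Myh7 passed with it in chow renin against chow control (1.80 log2, adjusted p = 0.023).

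Called differences turned in direction for Wdr1 in HFD renin against HFD control with the clock score (-0.00071 log2) and for Wasf1 in chow renin against chow control with the neuron and glia score (-0.42 log2), and neither passed there (edgeR, adjusted p = 0.999 and 0.933). The others that turned had not passed. With the main transcript alone, the log2 ratio of Actb to Actg1 was -0.054, -0.095, -0.017, -0.037 and 0.041 in HFD renin, chow renin and HFD control against chow control, then in HFD renin against HFD control and chow renin. From estimated counts it was -0.016 for chow renin against chow control, -0.0058 for HFD renin against HFD control and 0.022 against chow renin, and without the atrial libraries -0.012 against HFD control. Against chow control, HFD renin hearts had log2 fold changes of -0.0057 for Acta2, 0.018 for Actb and 0.016 for Actg1 with the neuron and glia score, and 0.021 for Actb and 0.0089 for Actg1 without the atrial libraries. With the clock score, chow renin against chow control gave 0.34 for Acta2, -0.011 for Actb and -0.044 for Actg1, and limma on the deposited matrix gave -0.061 for Actg1. The clock score also gave -0.021 for Actg1 in HFD control against chow control, 0.33 for Acta2 and -0.072 for Srf in HFD renin against HFD control, and -0.015 for the Acta2 interaction. Leaving out 1 heart gave, against chow control, ranges of -0.081 to 0.015 for Actb and -0.083 to 0.012 for Actg1 in HFD renin, -0.0022 to 0.080 for Actb in chow renin, and -0.015 to 0.083 for Actb and -0.024 to 0.056 for Actg1 in HFD control. It gave -0.41 to 0.016 for Acta2 in HFD renin against HFD control and -0.092 to 0.33 for the Acta2 interaction.

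Counts over all genes moved more. HFD renin against chow control had 1262 genes called, 803 from the libraries compared alone, 761 by limma and 0 by edgeR with the clock score. HFD renin against HFD control had 1696, and 549, 881 and 0 under the same settings. Leaving out 1 heart gave 565 to 1723 and 696 to 2394, with fewer by over 1.5 times without chow control heart 1, 2 or 4 (against chow control) or HFD renin heart 1, 2 or 5 (both comparisons), so the background shares move too. The neuron and glia score took chow renin against chow control from 2048 to 40, HFD renin against chow renin from 3440 to 42 and the interaction from 1589 to 35, and the clock score took the first of these to 1295 and the next to 2255. HFD control against chow control had 10 called, and 0 (replicate block, or without the atrial libraries) to 134 (neuron and glia score) elsewhere, with 0 to 57 when 1 heart was left out.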
